A study of Mus musculus with 6 samples.

Results

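The genes described here are 8 genes of Schwann cells and myelin, namely Mbp, Pmp22, Mag, Prx, S100b, Erbb3, Egr2 and Foxd3. They were chosen by name, and each was found by its Ensembl identifier among the 39179 genes counted. All 8 had at least 1 CPM (the count scaled to the library's total over genes) in 3 or more libraries, which is the filter on low counts, so all 8 were among the 14723 genes tested. The RNA came from the sensory epithelium of the cochlea, the hearing organ, and of the vestibule, the balance organ, of wild-type C57Bl/6J mice on the day of birth (P0), with males and females pooled. There were 3 libraries from the cochlea and 3 from the vestibule. The labels give at least 20 pooled organs for each, while the series text and methods give 20 inner ears of 10 mice in all, and neither states that the 3 libraries of a tissue came from separate animals. Each SD with n = 3 and each p-value measures the spread between these libraries. How much of it is technical and how much lies between dissections or animals was not tested.

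Schwann cells are the glia of peripheral nerves. They arise from the neural crest, follow growing axons, and read neuregulin on the axon through the receptor pair ERBB2 and ERBB3. The cells that surround large axons switch on the transcription factor EGR2 and wrap the axon in myelin, a stack of membrane held together by proteins such as PMP22 and MBP. In the inner ear they ensheathe the fibres of the spiral and vestibular ganglia.

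Each library held between 24464483 and 33664793 counts on genes, so that 1 CPM stood for 24.5 to 33.7 counts. Libraries differed by more than sampling noise also within a tissue, with a chi-square per degree of freedom of 26.6 to 92.7. Cochlea replicate 3 stood apart in genes of skeletal muscle, whose 8 listed genes summed to 318 CPM there and to between 4.74 and 29.4 CPM in the other 5 libraries. The fold changes and calls of the 8 genes, and the counts called in the lists of related Schwann cell genes, were therefore also computed without it, as without every other library. Fold changes are vestibule minus cochlea on the log2 scale, fitted by the quasi-likelihood method of edgeR with TMM scaling, and a gene is called when its p from that test, adjusted over all genes tested by Benjamini-Hochberg, is under 0.05. In tissue RNA of this kind, fewer cells of a type and less RNA per cell cannot be told apart.

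Of the 8 genes, 5 were higher in the vestibule and none was higher in the cochlea, where 15.8% and 11.6% of all genes tested were called in these directions and 27.4% in either. An unadjusted p under 0.05 was also reached by 5 of the 8, against 38.9% of all genes tested. Over all genes 2325 were called higher in the vestibule and 1711 in the cochlea, a split that became 2754 and 1251 when libraries were scaled by their totals alone, with the calls of the 8 genes as before. The 5 are the structural and mature-glia genes Mag, Prx, Pmp22, Mbp and S100b. The receptor gene Erbb3 and the genes of the transcription factors Egr2 and Foxd3 were not called. The same split appeared without any test, since for these 5 genes all vestibular libraries lay above all cochlear ones in CPM, as they did for 27.5% of all genes tested (the reverse held for 14.3%), and for the other 3 the tissues overlapped. Whichever of the 6 libraries was omitted, the 5 genes were called. With the replicate number as a block in the fit, 4 were called and S100b was not (edgeR adjusted p = 0.0511).

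**Figure D1:**
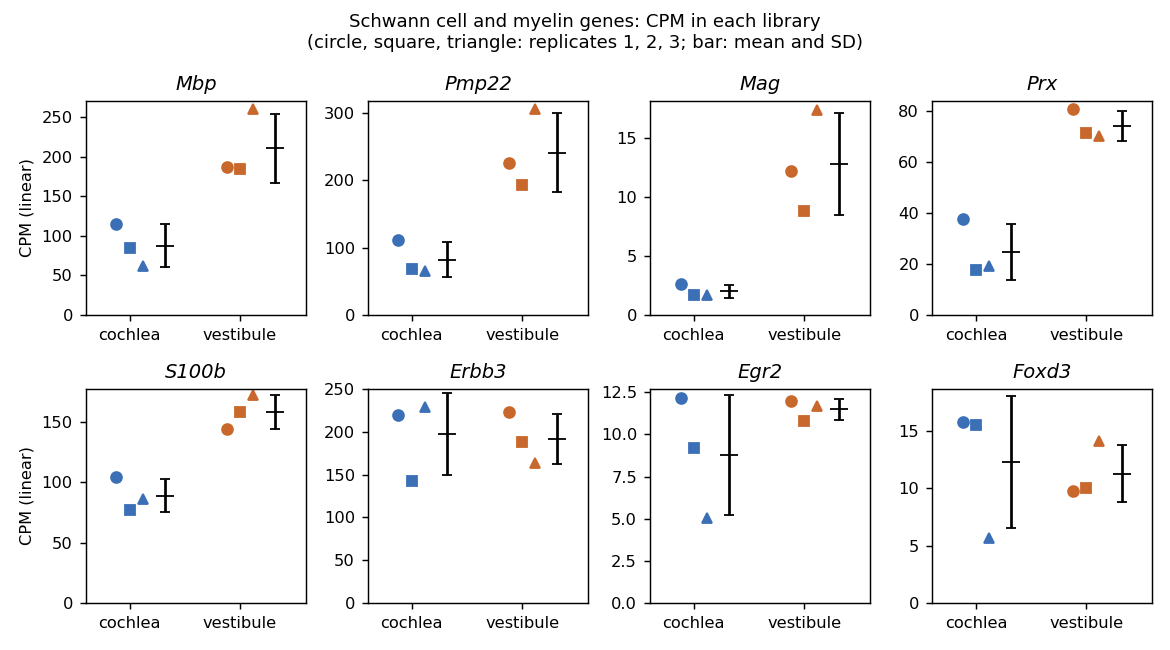
CPM of each of the 8 genes on linear axes from 0, with 1 point per library (circle, square and triangle for replicates 1, 2 and 3) and, beside the points, the mean with a bar of 1 SD. For Mbp, Pmp22, Mag, Prx and S100b every vestibular point lies above every cochlear point, while for Erbb3, Egr2 and Foxd3 the points of the tissues overlap.

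Mag (ENSMUSG00000036634, chr7:30899176-30914873, minus strand, GRCm38 in GENCODE vM21) encodes the myelin-associated glycoprotein, an adhesion molecule of the innermost glial membrane that faces the axon. Its cochlear levels were 2.66, 1.74 and 1.68 CPM and its vestibular levels 12.2, 8.84 and 17.3 CPM. The lowest vestibular library thus lay well above the highest cochlear one, although the cochlear values rest on only 49 to 65 counts. The mean rose from 2.02 ± 0.55 CPM to 12.8 ± 4.29 CPM (SD, n = 3 each), or 2.56 on the log2 scale (standard error 0.32, Benjamini-Hochberg adjusted p = 0.000517 by edgeR's quasi-likelihood method). This was the largest change of the 8 genes, a fold of 5.89.

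Prx (ENSMUSG00000053198, chr7:27499324-27520214, plus strand) encodes periaxin, a scaffold of the outer Schwann cell membrane that links it through DRP2 to the dystroglycan complex. It measured 37.4, 17.8 and 19.1 CPM in the cochlea against 80.5, 71.3 and 70.1 CPM in the vestibule. The vestibular libraries lay close together and the cochlear ones were spread, with replicate 1 highest. The means were 24.8 ± 10.97 and 73.98 ± 5.68 CPM (SD, n = 3), and the log2 fold change was 1.47 (standard error 0.26, edgeR adjusted p = 0.00312). An antisense transcript, Gm15541, lies across part of Prx and had 5 to 28 counts, against 513 to 2710 for Prx.

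Pmp22 (ENSMUSG00000018217, chr11:63128982-63159547, plus strand) encodes a membrane protein with 4 spans in compact peripheral myelin, and it is also transcribed in fibroblasts and other cells that have stopped dividing. Cochlear libraries had 112, 67.7 and 65.8 CPM and vestibular ones 225, 192 and 305 CPM. Vestibule replicate 3 was the highest and cochlea replicate 1 the highest of its tissue. The mean went from 81.8 ± 26.0 to 241 ± 58.2 CPM (SD, n = 3), a log2 fold change of 1.45 (standard error 0.26, edgeR adjusted p = 0.00323).

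Mbp (ENSMUSG00000041607, on chromosome 18) encodes the myelin basic proteins, which draw the cytoplasmic faces of the myelin membrane together. Its level was 116, 85.2 and 61.8 CPM in cochlear and 187, 185 and 261 CPM in vestibular libraries. The tissues did not overlap, and the lowest value was that of cochlea replicate 3. The means were 87.5 ± 27.0 and 211 ± 43.3 CPM (SD, n = 3), which gave a log2 fold change of 1.16 (standard error 0.25, edgeR adjusted p = 0.00936). The counts are per gene, so the classic myelin transcripts and the longer Golli transcripts of this gene, which other cells make, were not separated.

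S100b (ENSMUSG00000033208, chr10:76253853-76261159, plus strand) encodes a calcium-binding protein of glia that cartilage cells also make. It stood at 104, 76.9 and 86.1 CPM in the cochlea and at 144, 158 and 173 CPM in the vestibule. The change was the smallest of the 5, from 89.0 ± 13.9 to 158 ± 14.4 CPM (SD, n = 3), or 0.72 on the log2 scale (standard error 0.15, edgeR adjusted p = 0.00806). Its last part overlaps the gene Dip2a on the opposite strand, which had 963 to 2484 counts, and whether the counting used the strand is not given in the sources used here.

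Erbb3 (ENSMUSG00000018166, chr10:128567523-128589652, minus strand), the neuregulin receptor, had 220, 142 and 229 CPM in the cochlea and 223, 188 and 164 CPM in the vestibule. All vestibular values lay within the cochlear range. The means were 197 ± 48.1 and 192 ± 29.5 CPM (SD, n = 3), and the log2 fold change of -0.16 (standard error 0.18) was not called (edgeR adjusted p = 0.554).

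Egr2 (ENSMUSG00000037868, chr10:67535475-67542188, plus strand), the gene of the transcription factor that drives myelination, had 12.1, 9.17 and 5.03 CPM in the cochlea and 12.0, 10.8 and 11.7 CPM in the vestibule. The cochlear libraries spanned the vestibular ones, with replicate 1 level with them and replicate 3 lowest. The log2 fold change was 0.27 (standard error 0.29, edgeR adjusted p = 0.535), and without cochlea replicate 3 it was -0.02.

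Foxd3 (ENSMUSG00000067261, chr4:99656299-99658622, plus strand) encodes a transcription factor of the neural crest and of early glial precursors. It had 15.8, 15.5 and 5.68 CPM in the cochlea and 9.74, 10.0 and 14.1 CPM in the vestibule. Cochlea replicate 3 was the lowest of the 6 libraries, while the other cochlear libraries were the highest. The log2 fold change was -0.24 (standard error 0.38, edgeR adjusted p = 0.673), and without cochlea replicate 3 it was -0.60 (edgeR adjusted p = 0.0744).

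Promoter sequence came from a table of RefSeq promoters (GRCm38.p6), in which 6 of the 8 genes were matched, with 15 annotated starts in all. Mbp and Erbb3 were not matched. The windows below are the 250 bases before the most upstream start of the 4 genes higher in the vestibule that had one, printed 5′ to 3′ on the strand of the gene. They were searched on both strands for a SOX motif, ACAAAG or CTTTGT, because SOX10 is the lineage factor of these cells, and for an EGR motif, GNGTGGGNG or CNCCCACNC, because Egr2 is among the genes. Capitals mark the matches. The window of Mag is chr7:30914923-30915172, that of Prx chr7:27499074-27499323, that of Pmp22 chr11:63128732-63128981 and that of S100b chr10:76253586-76253835.

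Mag: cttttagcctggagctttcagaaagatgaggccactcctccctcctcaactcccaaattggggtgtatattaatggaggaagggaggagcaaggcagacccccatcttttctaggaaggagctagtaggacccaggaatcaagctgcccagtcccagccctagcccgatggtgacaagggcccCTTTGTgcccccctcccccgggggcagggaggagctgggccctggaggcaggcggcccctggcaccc

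Prx: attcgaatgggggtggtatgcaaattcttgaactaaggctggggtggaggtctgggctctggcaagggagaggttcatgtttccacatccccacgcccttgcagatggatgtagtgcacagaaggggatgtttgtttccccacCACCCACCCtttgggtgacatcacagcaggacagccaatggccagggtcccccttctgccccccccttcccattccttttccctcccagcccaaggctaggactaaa

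Pmp22: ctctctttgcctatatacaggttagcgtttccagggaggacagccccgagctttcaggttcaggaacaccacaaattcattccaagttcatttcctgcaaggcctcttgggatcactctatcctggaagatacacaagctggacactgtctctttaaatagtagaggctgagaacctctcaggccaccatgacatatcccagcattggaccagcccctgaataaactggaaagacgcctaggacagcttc

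S100b: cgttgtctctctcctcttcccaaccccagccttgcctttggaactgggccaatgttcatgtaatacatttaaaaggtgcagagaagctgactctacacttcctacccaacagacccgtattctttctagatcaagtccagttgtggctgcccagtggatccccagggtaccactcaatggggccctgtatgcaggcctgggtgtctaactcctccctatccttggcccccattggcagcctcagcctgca

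Mag held the SOX letters, starting 67 bases before its most upstream start, and the same site fell in the window of its next start. Prx held the EGR letters, starting 107 bases before its start. No other window of the 15 held either motif, those of Egr2 and Foxd3 included. Windows of neighbouring starts overlap, so they are not independent. In all, 2 of the 15 windows held the SOX motif and 1 the EGR motif, where 16.5% and 12.7% of all 32851 promoter windows of this length did. The matches are given as a description of these stretches of sequence.

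Levels of different genes can be compared only per length, on the deposited RPKM (reads scaled to the library total and to the length of the gene). In the cochlea S100b was highest, at 60.1 ± 9.35 RPKM (SD, n = 3), followed by Pmp22 at 34.8 ± 11.1 and Erbb3 at 32.8 ± 8.01, which overlapped each other. Mbp followed at 10.4 ± 3.21. The next in order, Foxd3 at 5.21 ± 2.43, Prx at 4.45 ± 1.97 and Egr2 at 2.59 ± 1.05, overlapped from one to the next, and Mag was last at 0.841 ± 0.228. In the vestibule S100b at 107 ± 9.69 and Pmp22 at 103 ± 24.7 overlapped at the top, and Erbb3 at 31.9 ± 4.91 overlapped Mbp at 25.1 ± 5.15. Prx stood at 13.3 ± 1.02, above Mag at 5.30 ± 1.77 and Foxd3 at 4.77 ± 1.04, which overlapped. Egr2 was last at 3.39 ± 0.186 RPKM. Mag was thus the lowest of the 8 in the cochlea and the sixth in the vestibule.

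Within a tissue, most but not all of the 8 genes had the same highest library. Cochlea replicate 1 was the highest of the cochlear libraries for 6 of the 8 genes, against 30.4% of all genes tested, and vestibule replicate 3 the highest of the vestibular ones for 6 of the 8, against 41.6%. Over the 8 genes and 42 related Schwann cell genes described below, 30 of 50 were highest in cochlea replicate 1 and 31 of 50 in vestibule replicate 3. Cochlea replicate 3 was lowest of its tissue for 5 of the 8 genes, against 38% of all genes tested. Erbb3 ran against most of the others, being highest in cochlea replicate 3 and lowest in vestibule replicate 3. Prx was highest in vestibule replicate 1 and, with TMM scaling, Foxd3 in cochlea replicate 2. These shares are descriptions of 6 libraries on the TMM-scaled log2 CPM.

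Profiles over the 6 libraries were compared as the root mean square difference of log2 CPM after centring each gene. The most alike pair was Mbp and Pmp22, at 0.20, followed by Pmp22 and Prx at 0.25. Mag and Erbb3 were the least alike, at 1.39, and Mag and Foxd3 nearly as far apart at 1.39. Egr2 lay nearest to Foxd3, at 0.34. Against the mean profile of the 8 genes, the 5 nearest of all other genes tested were Npr3 at 0.076, Ogn at 0.083, Dusp15 at 0.098, Cnp at 0.110 and Aldh3b1 at 0.115. Of these, Cnp, which encodes an enzyme of non-compact myelin, was on a list of myelin genes.

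Of 12 other proteins of the myelin sheath and its axon contact, 6 were higher in the vestibule and none in the cochlea, with a median log2 fold change of 0.72, where 15.8% and 11.6% of all genes tested were called and their median was 0.0048. The 6 became 4 without any 1 vestibular library, where Pmp2 no longer passed the filter on low counts. Pmp2, a fatty-acid binding protein of compact myelin, had 5, 1 and 4 counts in cochlear libraries and 237, 188 and 278 in vestibular ones. Its log2 fold change of 5.96 (standard error 0.45, edgeR adjusted p = 3.28e-05) was the largest of the list and rests on very few cochlear counts. Under 1 CPM in every cochlear library, Pmp2 passed the filter on its vestibular libraries alone, which fixed its direction. Cldn19, a claudin of Schwann cell tight junctions, changed by 1.63 (standard error 0.52, edgeR adjusted p = 0.046), with 14.5, 2.64 and 4.65 CPM in the cochlea and 23.6, 19.8 and 28.5 CPM in the vestibule. Gjb1, a connexin of non-compact myelin, had 1.55, 1.18 and 0.890 CPM against 3.45, 3.85 and 4.04 CPM, a change of 1.53 (standard error 0.27, edgeR adjusted p = 0.00315). The other 3 were Mal at 1.42, Cnp at 0.98 and the adhesion gene Cadm4 at 0.70. Among the 6 genes not called were Drp2 at 0.02 and Dag1 at -0.09, which encode the partners of periaxin.

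Of 5 enzymes of myelin lipids, 2 were higher in the vestibule and none in the cochlea, with a median log2 fold change of 0.46, where 15.8% and 11.6% of all genes tested were called. The 2 became 1 without cochlea replicate 2 or 3, without vestibule replicate 2 or 3, and with the replicate number as a block. Fa2h, which hydroxylates fatty acids, had 2.58, 3.33 and 1.09 CPM in the cochlea and 10.0, 8.53 and 13.8 CPM in the vestibule, a log2 fold change of 2.09 (standard error 0.40, edgeR adjusted p = 0.00503). Gal3st1, the sulfotransferase that makes sulfatide, changed by 0.61 (standard error 0.17, edgeR adjusted p = 0.028). All 5 enzymes were above the cochlear libraries in every vestibular one, as were 27.5% of all genes tested.

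**Figure D2:**
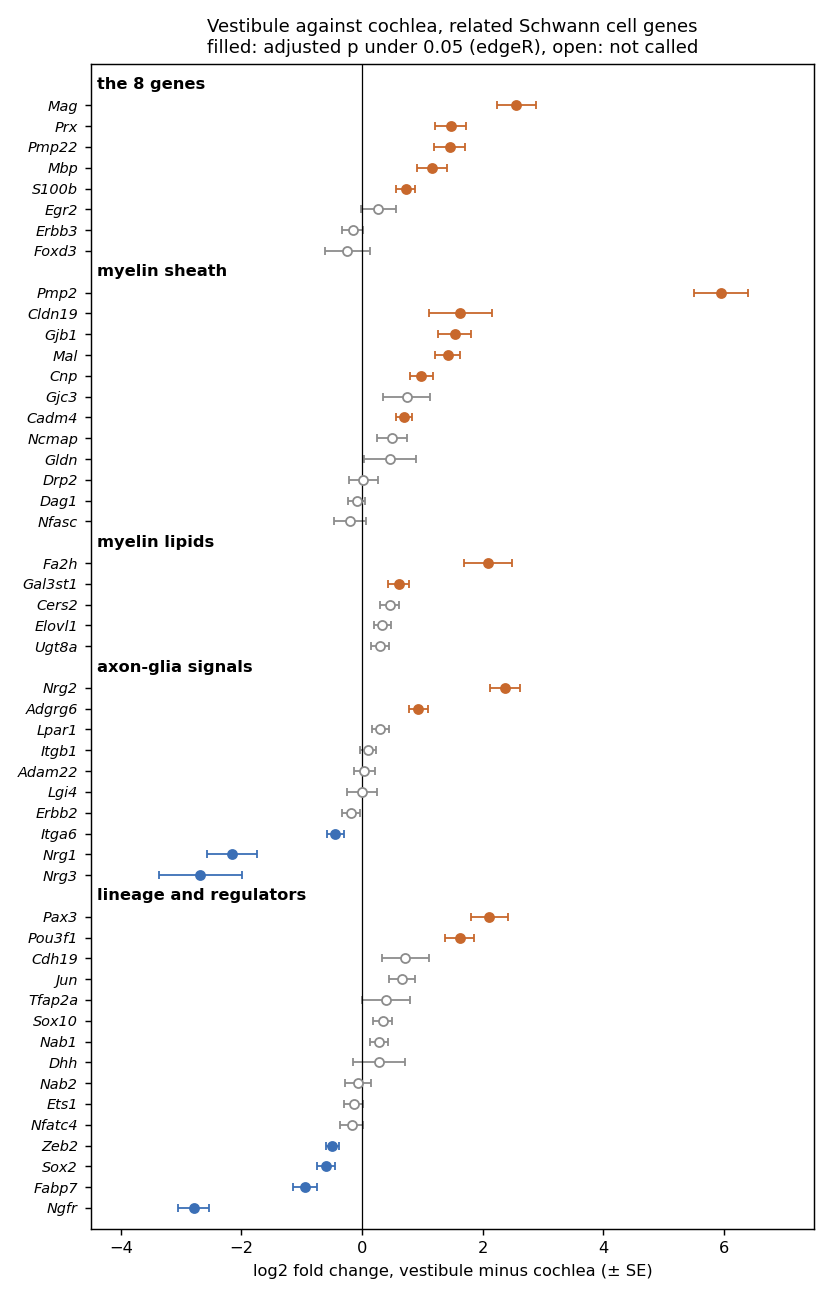
Log2 fold change, vestibule minus cochlea, with a bar of 1 standard error, for the 8 genes and the 42 related genes tested, grouped by role. Filled points passed an adjusted p of 0.05 and open points did not. In the groups of myelin sheath and myelin lipids the called genes all lie to the right of 0, while the axon-glia signals and the lineage genes have called genes on both sides.

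Of 10 genes of axon-glia signals and their receptors, 2 were higher in the vestibule and 3 in the cochlea, where 15.8% and 11.6% of all genes tested were called, and their median was 0.019. The count in the vestibule was 1 without any 1 vestibular library, and that in the cochlea was 1 without cochlea replicate 1 or 2 or vestibule replicate 2. The neuregulins, ligands of the ERBB receptors, moved in both directions. Nrg1 had 5.48, 4.96 and 2.91 CPM in the cochlea and 1.81, 0.701 and 0.707 CPM in the vestibule, a log2 fold change of -2.16 (standard error 0.41, edgeR adjusted p = 0.00481), and Nrg3, with 7.85, 6.42 and 1.71 CPM against 1.63, 0.234 and 0.785 CPM, had one of -2.68 (standard error 0.68, edgeR adjusted p = 0.0192). Nrg2 was higher in the vestibule, with 0.654, 0.729 and 0.958 CPM against 5.02, 4.32 and 3.93 CPM and a log2 fold change of 2.37 (standard error 0.25, edgeR adjusted p = 0.000179). Under 1 CPM in every cochlear library, Nrg2 passed the filter on its vestibular libraries alone, which fixed its direction. It was thus not tested when any 1 of these was left out, as in the counts above. Erbb2, the partner of Erbb3, was like it not called, at -0.18. Adgrg6, an adhesion G protein-coupled receptor needed for myelination, was higher in the vestibule at 0.93, and the integrin gene Itga6 higher in the cochlea at -0.45.

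Of 16 lineage genes and regulators, 15 were tested, 2 of which were higher in the vestibule and 4 in the cochlea, with a median of 0.28, where 15.8% and 11.6% of all genes tested were called. The vestibular count was 1 without any 1 vestibular library. The count in the cochlea was 2 without vestibule replicate 2 and with the replicate number as a block. With no filter on low counts the vestibular count was 4. Sox10, the lineage factor that otic epithelium and melanocytes also express, had 242, 308 and 295 CPM in the cochlea and 440, 409 and 320 CPM in the vestibule. Its tissues did not overlap in CPM, yet its log2 fold change of 0.34 was not called (standard error 0.16, edgeR adjusted p = 0.148). Pou3f1, a factor of the promyelinating stage, was higher in the vestibule at 1.62 (standard error 0.24, edgeR adjusted p = 0.00115), with 3.23, 2.33 and 2.12 CPM against 7.40, 8.80 and 9.22 CPM. Ngfr, the low-affinity neurotrophin receptor of immature Schwann cells and of cochlear supporting cells, fell from 67.6, 71.6 and 50.1 CPM in the cochlea to 14.2, 7.20 and 8.44 CPM in the vestibule, a log2 fold change of -2.79 (standard error 0.26, edgeR adjusted p = 0.00011). Fabp7, a fatty-acid binding protein of glial precursors, was also higher in the cochlea, at -0.94 (standard error 0.20, edgeR adjusted p = 0.00725). The remaining called genes were Pax3 at 2.11 and, higher in the cochlea, Sox2 at -0.60 and Zeb2 at -0.49. Pax3, under 1 CPM in every cochlear library, passed the filter on its vestibular libraries alone, which fixed its direction. It was not tested when any 1 of these was left out. Sox2 also marks supporting cells.

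A ratio of counts within a library does not depend on the scaling between libraries. Relative to Sox10, 3 of the 8 genes were higher in every vestibular library than in any cochlear one, namely Mag, Prx and Pmp22, by 2.18, 1.20 and 1.11 on the log2 scale, and none was lower in this way. Of all genes tested except Sox10, 11.2% were higher without overlap on the same ratio and 31.7% were lower. Mbp and S100b overlapped between the tissues on this measure. Mag had 0.0110, 0.00564 and 0.00568 counts for each count of Sox10 in cochlear libraries and 0.0278, 0.0216 and 0.0543 in vestibular ones. With 3 libraries against 3 a two-sided exact permutation test cannot go below p = 0.1, which was the value wherever the tissues did not overlap. None of these differences thus passed a test.

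**Figure D3:**
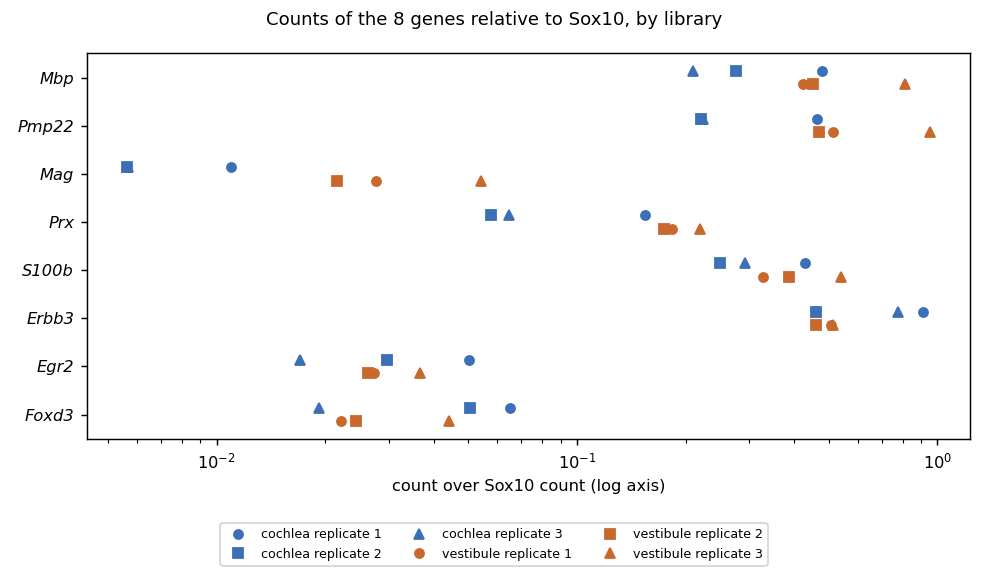
Counts of each of the 8 genes divided by the count of Sox10 in the same library, on a log axis, with 1 point per library (cochlea blue, vestibule orange). For Mag, Prx and Pmp22 the vestibular points lie to the right of all cochlear points, and for the other 5 genes the tissues overlap.

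Genes of other cells that the dissected tissue could hold were measured beside these results, and their part in the results was not tested. The counts called in each list below stand against 15.8% of all genes tested higher in the vestibule and 11.6% higher in the cochlea. Genes under 1 CPM in every library of 1 tissue could pass the filter on the other tissue alone, which fixed their direction. Among those tested in these lists, they were Ermn, Tyrp1, Mlana and Comp for the vestibule and Hes5 for the cochlea. Of 8 listed genes of oligodendrocytes, the myelinating glia of the brain, only Ermn passed the filter, at 1.87 on the log2 scale, and the list summed to 0.521 to 1.92 CPM in the cochlea and 2.69 to 4.25 CPM in the vestibule. Olig1, below the filter, had 1, 0 and 20 counts in cochlear libraries and 62, 25 and 33 in vestibular ones. Of 12 neuron genes, 5 were higher in the cochlea, none was higher in the vestibule and 7 were not called, with a median of -1.62. Among the 7, Ntrk3, a neurotrophin receptor, had every vestibular library above every cochlear one, at 0.62 (edgeR adjusted p = 0.07). The sum of the 12 was 685, 646 and 322 CPM in the cochlea and 400, 156 and 200 CPM in the vestibule, so the tissues overlapped, with cochlea replicate 3 below vestibule replicate 1. Syt1, a synaptic vesicle protein, was higher in the cochlea at -1.71 (edgeR adjusted p = 0.000232), and Nefm, a neurofilament, was not called at -0.04.

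Melanocytes share a neural crest origin with Schwann cells, and all 7 of their listed genes were higher in the vestibule, with Pmel at 2.47 and Dct at 2.08. Their sum was 41.8 to 67.4 CPM in the cochlea and 304 to 362 CPM in the vestibule. Of the mesenchyme list, 4 of 10 genes were higher in the vestibule and 1 in the cochlea, with Col1a2 at 1.05 and Col3a1 not called at 0.24, and its sum was 5223 to 5965 against 8075 to 9321 CPM. Cartilage genes, relevant to S100b, were 3 of 7 tested higher in the vestibule and 1 in the cochlea, from Acan at 3.52 to Matn1 at -4.60. The most abundant, Col2a1 at -0.25 and Col9a1 at 0.45, were both not called, and the sums of the list overlapped at 10459 to 17819 and 12998 to 16394 CPM. Endothelial genes were higher in the vestibule for 6 of 8, such as Kdr at 3.60, and higher in the cochlea for 1, Emcn, at -1.80, with sums of 192 to 270 and 437 to 622 CPM. Hair cell genes were higher in the vestibule for 6 of 9, with Otof at 2.08 and Myo7a not called at 0.57, and sums of 219 to 355 and 820 to 1079 CPM. Supporting cell genes were higher in the cochlea for 5 of 7, with Jag1 at -1.50 and Notch1 not called at -0.64, and sums of 787 to 1266 and 527 to 677 CPM. No skeletal muscle gene was called among the 5 tested, with Acta1 at -3.25 and Mylpf at -2.53.

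**Figure D4:**
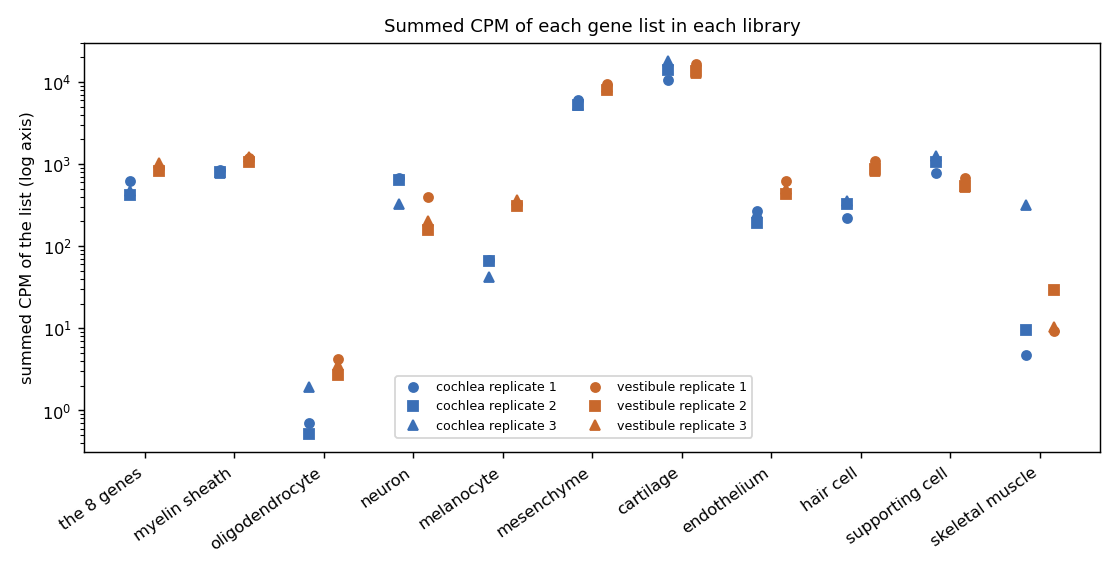
Summed CPM of each gene list in each library on a log axis, with 1 point per library. The 8 genes, the myelin sheath list and the oligodendrocyte, melanocyte, mesenchyme, endothelium and hair cell lists lie higher in the 3 vestibular libraries. The supporting cell list lies higher in the cochlea, and the skeletal muscle list reaches 318 CPM in cochlea replicate 3.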

How the data were processed

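RNA-seq of 3 cochlear and 3 vestibular libraries, each from 450 ng of RNA with a stranded mRNA kit, was used. Per the labels, the authors aligned the reads with TopHat2 2.1.0 to GRCm38, and deposited raw HTSeq 0.5.4p5 counts for each Ensembl gene. The authors also deposited a matrix of log2 RPKM made with edgeR 3.4.2 for 14722 genes. Summary lines that belong to no gene, 18.5% to 20.6% of listed counts, stayed out of library sizes and tests. Symbols came from GENCODE vM21, which paired 37607 of the 39179 identifiers.

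The tests used genes that reached 1 CPM in 3 libraries or more. All 6 libraries entered 1 fit without covariates, by the quasi-likelihood method of edgeR 4.0.16 (R 4.3.3) with TMM scaling, and p was adjusted by Benjamini-Hochberg with a threshold of 0.05. The standard error is the absolute log2 fold change over the square root of the F statistic. Its script was first tested on simulated data. Log2 CPM for profiles used a prior count of 0.5. Ratios were compared by a two-sided exact permutation test. Figures were drawn with matplotlib 3.10.9.

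The 8 genes and all lists were chosen with earlier results of these data known. Besides the 8 genes, the text names Sox10, Ngfr, up to 3 called genes of each related list with the largest change and a mean of at least 1 CPM, the 2 most abundant genes of each cell type list, and the 5 genes nearest in profile. Other called genes of short lists, and Drp2, Dag1, Erbb2, Ntrk3, Acan and Matn1, were named after their values were seen. So were the cell type genes named for passing the filter on 1 tissue alone. Alternatives were DESeq2 1.42.0, limma-voom (limma 3.58.1), edgeR's exact test, other scalings and filters, a second threshold, a replicate block and leaving out each library. Some listed genes, and ratios to them, are not reported here and stayed out of the counts over lists.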

Additional observations from a re-analysis of the deposited data

How the results depend on the processing

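Mag, Prx, Pmp22 and Mbp were called under all 14 alternative fits, with log2 fold changes of 2.24 to 2.79, 1.29 to 1.87, 1.21 to 1.72 and 0.94 to 1.38, and the highest adjusted p among them was 0.0478, for Mbp. S100b lay between 0.63 and 0.83 and was called in 13 of the 14. Erbb3, Egr2 and Foxd3 were called in none, and with each library left out they ran from -0.33 to -0.05, from -0.024 (without cochlea replicate 3) to 0.55 and from -0.60 to -0.0089. With library sizes alone the median of all genes moved to 0.13, and no gene of the 8 changed direction. Of 42 genes tested in the 4 related lists, 12 were called higher in the vestibule and 7 in the cochlea, against 15.8% and 11.6% of all genes. With each library left out these counts were 7 to 14 and 3 to 6, with 7 in the vestibule without vestibule replicate 2 or 3, and 4, 4 and 3 in the cochlea without cochlea replicate 1, cochlea replicate 2 or vestibule replicate 2. Over all genes the calls higher in the vestibule also fell, from 2325 to 1342 and 1938 without vestibule replicate 2 and 3. Fewer libraries entered these fits, while the filter still asked for 1 CPM in 3 of them. Without a vestibular library, Pmp2, Nrg2 and Pax3, each under 1 CPM in every cochlear library, were therefore not tested. Genes tested fell from 14723 to 14224 and 14283 without vestibule replicate 2 and 3. What else lowered the counts was not tested. With the replicate number as a block, S100b was 0.72 with an adjusted p of 0.0511 and 4 related genes were higher in the cochlea, with 2 of the lineage list there and 1 lipid enzyme higher in the vestibule, while the other calls of the 8 genes did not change. Whether the numbers pair the libraries could not be decided here. The deviations of same-numbered libraries from their tissue means correlated at -0.175, -0.26 and -0.474, and no cochlear library correlated best with its own number. With 3 libraries in each tissue these deviations constrain one another, so the correlations cannot exclude a pairing. Without that block and over all genes 2325 and 1711 were called, and with it 1609 and 1009. Without TMM it was 2754 and 1251, or with edgeR's exact test 2547 and 1881. Cochlear counts of 49 to 65 for Mag and 1 to 5 for Pmp2 limit the precision of their fold changes.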
